A study of Mus musculus with 6 samples.

Results

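Interferon stimulated genes are the transcripts that cells raise when a type I, II or III interferon binds its receptor. The 39 genes described here were taken by symbol from the deposited gene lists, and 38 of them had a row there, of 32285 genes in all (Mx1 is not analysed here). They hold the chemokine Cxcl10, the ubiquitin-like modifier Isg15 with its remover Usp18, the secreted glycoprotein Lgals3bp, and the IFIT and OAS families. The members also hold antiviral effectors such as Bst2 and Ifitm3 and the RNA sensors Ifih1 and Dhx58. The members further hold the transcription factors Irf1, Irf7, Irf9 and Stat2, and the interferon inducible GTPases of the Gbp and Irg families. They were followed in 6 droplet libraries of mouse dorsal skin, taken once at 0 h, once each at 4 h and 16 h, and once each at 2 d, 4 d and finally 6 d after depilation, which starts a new hair growth cycle. Each library held the cells of 2 adult male wildtype FVB mice aged p55-57, shaved and waxed, whose cells were prepared separately and mixed in equal numbers before capture. No library carries a mutation or a drug, cells of the 2 mice in a library are not marked by mouse, and with 1 library per time point no test compares 2 times.

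In the textbook pathway, interferon alpha, beta, epsilon and kappa bind Ifnar1 and Ifnar2, interferon lambda binds Ifnlr1 and Il10rb, and both lead to a complex with Stat2 and Irf9 that binds the interferon stimulated response element. Interferon gamma binds Ifngr1 and Ifngr2, and Irf1, Cxcl9, Cxcl10 and the GTPases are among its well known targets. Socs1 and Socs3 limit both branches, and Usp18 dampens signalling at Ifnar2. Cxcl10 draws T cells that carry Cxcr3, and in skin keratinocytes, Langerhans cells, resident T cells and melanocytes can all express genes of this kind.

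The libraries held 7307 to 13878 cell barcodes each and 72634390 to 112370376 unique molecular identifiers (UMIs, each 1 captured transcript) in all. Filters on genes and mitochondrial UMIs left 55177 of 61031 barcodes, 4675 called doublets were removed, and 50502 cells were analysed, 6520 to 11032 per library. Any 2 libraries shared 7 to 40 barcodes. Levels are given as UMIs of a gene over all UMIs of the summed cells, scaled by 1000000 (CPM), with exact Poisson 95% intervals where an interval is printed, and shares of cells with exact binomial (Clopper-Pearson) 95% intervals. Both cover counting error only. Because UMIs count 3' ends, levels are compared between times and cell types and not between genes. The cells were clustered without the members, the other interferon genes, MHC class I genes and cell cycle genes, and clusters were named from marker lists as like basal interfollicular epidermis (IFE.B), suprabasal interfollicular epidermis (IFE.SB), basal and suprabasal upper hair follicle (uHF.B, uHF.SB), the Pinlyp and Wfdc18 follicle layer (IRS3), sebaceous gland, dendritic epidermal T cells, T lymphocytes, Langerhans cells, melanocytes, and dermal papilla and fibroblasts. The cluster meant as outer bulge also held inner root sheath and matrix cells and is called bulge and matrix. Its leading genes held 1 outer bulge marker, Lhx2, and 3 inner root sheath or matrix markers, and the inner root sheath and matrix list summed to 13.5 CPM at 0 h and up to 1080 CPM later. The label IRS3 rests on the later libraries: its own marker list summed to 161, 83.8, 157, 613, 2123 and 2982 CPM from 0 h to 6 d in that cluster, while the outer bulge list fell from 29470 CPM at 0 h to 7530 CPM at 6 d, so the early cells carried markers of the bulge and few of the layer. No cluster was named as macrophages, neutrophils or endothelium. Sebaceous gland (15 cells at 0 h) and dermal cells (8 cells at 2 d) were too few in a library for the fits described below.

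The letters that the 2 branches read are present before the start sites of many members. Of the 30 members with a promoter sequence in RefSeq (mouse build GRCm38.p6, 250 bases before the start searched), 16 held the core of the interferon stimulated response element, which reads GAAA, any 2 bases, GAAA (TTTC, any 2 bases, TTTC when read from the other strand). That is 53.3% of them, beside 3.46% of the 27025 genes with such a sequence. The core of the gamma activated site, TTCNNNGAA, which reads alike on both strands, was present in 6 of the 30 (Ifit2, Oas1a, Bst2, Irf1, Gbp7 and Igtp), beside 8.13% of genes. Stretches around these letters are shown for the members that the results turn on, 5′ to 3′ along the gene, with the matching letters in capitals. Overlapping matches run together: Isg15 has 3 response element matches in a row. Bst2 has 2 response element matches that overlap each other, and its gamma activated site match overlaps only the nearer of these. A match is a description of the letters and not a shown binding site. The stretches lie at chr4:156200845-156200926 on the minus strand (Isg15), chr5:92349063-92349132 minus (Cxcl10), chr19:34640755-34640843 plus (Ifit1), chr19:34583343-34583446 plus (Ifit3), chr19:34550444-34550491 plus (Ifit2), chr3:142620574-142620643 plus (Gbp2), chr8:71537557-71537638 minus (Bst2) and chr11:53769894-53769962 plus (Irf1).
Isg15: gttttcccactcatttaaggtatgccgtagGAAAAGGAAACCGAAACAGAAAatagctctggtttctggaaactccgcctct
Cxcl10: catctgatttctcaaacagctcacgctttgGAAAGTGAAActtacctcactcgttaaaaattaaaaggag
Ifit1: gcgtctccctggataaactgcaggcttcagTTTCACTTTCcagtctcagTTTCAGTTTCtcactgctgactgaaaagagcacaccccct
Ifit3: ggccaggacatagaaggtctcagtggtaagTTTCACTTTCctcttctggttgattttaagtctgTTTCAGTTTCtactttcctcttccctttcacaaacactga
Gbp2: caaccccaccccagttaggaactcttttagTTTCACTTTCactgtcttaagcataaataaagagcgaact
Bst2: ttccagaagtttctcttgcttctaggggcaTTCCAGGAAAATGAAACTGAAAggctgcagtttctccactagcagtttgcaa
Ifit2: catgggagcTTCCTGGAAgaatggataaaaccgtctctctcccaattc
Irf1: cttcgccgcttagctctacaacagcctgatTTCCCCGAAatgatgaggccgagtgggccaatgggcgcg

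Over all cells, more members had their highest level at 6 d after depilation than at any other time. Of the 32 members with at least 100 UMIs over the 6 libraries, 15 had their lowest level at 4 h, more than at any other time. So did 35.3% of the 14698 genes with as many UMIs, and a low at 4 h was thus not particular to the members. At 6 d, 19 of the 32 had their highest level, beside 6.76% of genes, and none had its lowest. The 6 d library is a single capture, so what the library and the time each give cannot be told apart.

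Isg15, the most abundant of the modifiers, was at 19.9, 7.42, 12.3, 21.8, 14.9 and 77.2 CPM from 0 h to 6 d. Cxcl10 was at 15.9, 1.79, 2.55, 11.4, 8.19 and 20.9 CPM from 0 h to 6 d, so the 0 h and 6 d libraries stood above the 4 h and 16 h libraries for both. Usp18, which removes Isg15 from proteins and dampens signalling at Ifnar2, ran another course, with 11.6, 2.57, 7.23, 7.16, 3.79 and 4.89 CPM from 0 h to 6 d. Lgals3bp, a secreted glycoprotein, stayed between 2.55 and 6.12 CPM.

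The IFIT proteins bind foreign RNA ends and were scarce here, with 918 UMIs over the 4 genes and all libraries. Ifit1 was at 0.315, 0.471, 0.470, 2.45, 0.314 and 4.31 CPM from 0 h to 6 d, high in the 2 d and 6 d libraries only. Ifit2, the next most abundant, was at 0.0150, 0.167, 0.167, 0.229, 1.07 and 0.651 CPM in the same order. Ifit3 and Ifit3b reached at most 0.372 CPM, and Ifit3b had no UMI at 16 h. The OAS genes, whose products make the messenger that activates RNase L, summed to 2026 UMIs. Oas1a was at 0.676, 1.2, 2.58, 1.08, 0.681 and 4.37 CPM from 0 h to 6 d. Oasl2 was at 1.59, 0.546, 1.49, 2.80, 1.07 and 4.04 CPM. Both were highest at 6 d, while Oas2, Oas3 and Oasl1 reached at most 0.797 CPM.

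Ifitm3, a membrane protein that blocks virus entry, gave most of the UMIs of the whole list and ran another course. It was at 627, 1099, 787, 625, 381 and 566 CPM from 0 h to 6 d, highest in the library where 15 of the 32 were lowest. Ifi35 also had its highest level at 4 h, with 56.0 CPM there and 15.6 to 25.8 CPM in the other 5 libraries. Ifi27l2a, of the ISG12 family, was at 18.0, 13.3, 20.006, 54.7, 42.1 and 186 CPM from 0 h to 6 d. Bst2, the tetherin that holds budding virus at the membrane, was at 13.3, 13.7, 22.2, 20.3, 23.4 and 27.2 CPM. Among the other effectors, Rtp4 (0.410 to 4.73 CPM), Xaf1 (2.91 to 8.09) and Parp14 (4.8 to 11.2) were highest at 6 d, and Rsad2, Ifi44, Cmpk2, Trim30a and Zbp1 reached at most 1.05 CPM. Epsti1 was highest at 2 d (1.95 CPM).

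Irf1, which is itself induced by interferon gamma and by other signals, swung widely. It was at 253, 11.6, 28.5, 54.1, 43.3 and 121 CPM from 0 h to 6 d. The immediate early genes Fos, Jun, Egr1 and Atf3 were also at their highest at 0 h, Atf3 with 3663 CPM there and 1293 CPM at 4 h, and their part in the Irf1 level was not tested. Irf9, a partner of Stat2, kept within 14.1 to 26.3 CPM, with 22.6, 23.01, 19.2, 14.1, 15.8 and 26.3 CPM from 0 h to 6 d. Irf7, which drives the second wave of interferon, was at 15.5 CPM at 6 d and at 3.85 to 7.33 CPM before, and Stat2 was at 4.79 to 11.6 CPM.

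The sensor Ifih1, which detects long double stranded RNA, was at 9.74, 6.21, 10.8, 8.97, 7.02 and 9.89 CPM, and its regulator Dhx58 at 0.330, 0.137, 0.784, 0.472, 0.577 and 0.929 CPM. Of the GTPases, which attack the vacuoles of intracellular microbes, Irgm1 was at 5.50, 1.55, 3.0, 3.10, 4.36 and 5.56 CPM from 0 h to 6 d. Igtp was at 4.44, 2.40, 2.98, 2.08, 4.98 and 5.08 CPM. Gbp2, Gbp3, Gbp7 and Iigp1, like Ifit2, had their highest level at 4 d, where Iigp1 was at 4.28 CPM against 0.197 CPM at 4 h. The mix of cell types changed too. From 0 h to 4 d melanocytes went from 29 to 272 cells, sebaceous gland from 15 to 662, and bulge and matrix from 390 to 3100. The part of this mix in the levels over all cells was not tested.

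**Figure D1:**
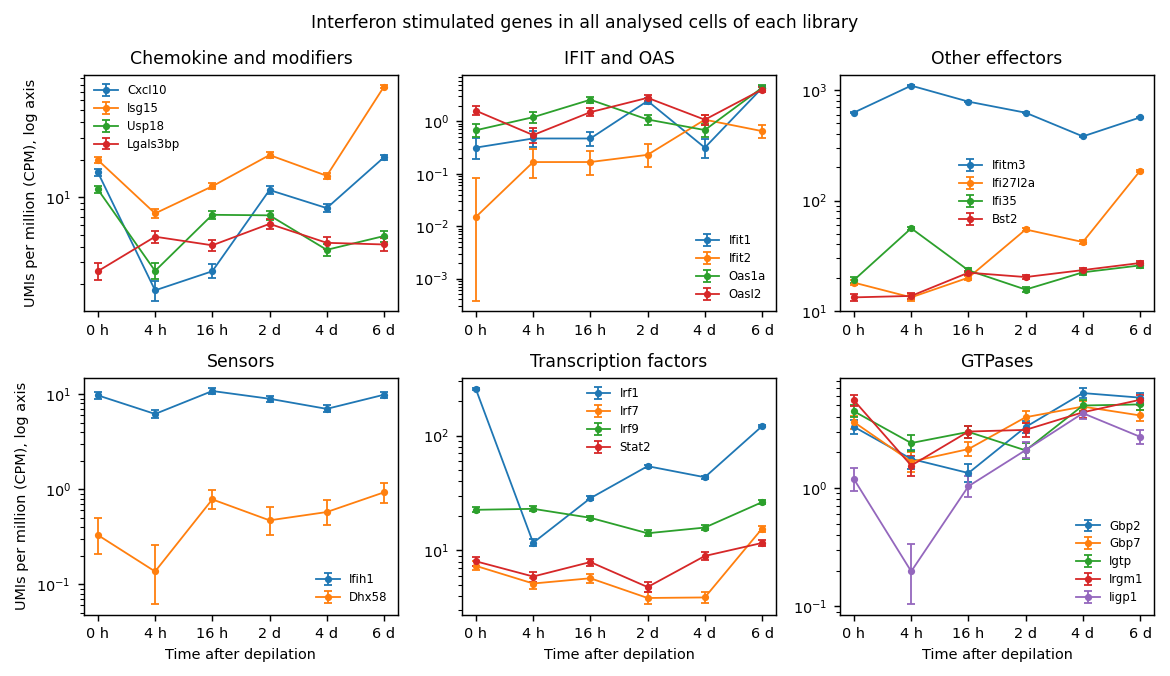
Level of members in all analysed cells of each library (CPM, log scale) against time after depilation, with exact Poisson 95% intervals. Isg15 reaches 77.2 CPM and Ifi27l2a 186 CPM at 6 d, Irf1 drops from 253 CPM at 0 h to 11.6 CPM at 4 h, and Ifitm3 is highest at 4 h.

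To follow the antiviral members together, the UMIs of 21 measured genes (Cxcl10, Isg15, Usp18, the IFIT and OAS genes, Rsad2, Cmpk2, Zbp1, Rtp4, Xaf1, Ifi44, Irf7, Ifih1 and Dhx58) were summed. This antiviral core was at 73.3, 30.8, 52.8, 70.1, 47.8 and 159.8 (157.0 to 162.7) CPM from 0 h to 6 d. In each of the 6 epidermis and follicle types fitted below, the sum was highest at 6 d, and in 5 of them it was lowest at 4 h. In IFE.B it was 79.4, 21.5, 51.9, 72.8, 50.2 and 119 CPM from 0 h to 6 d. In uHF.B it was 85.3, 19.6, 51.0, 93.3, 66.4 and 220 CPM, the highest value of a follicle or epidermis type. IFE.SB had its lowest sum at 4 d (31.9 CPM) and reached 197 CPM at 6 d. T cells, taken as dendritic epidermal T cells and T lymphocytes together, had 387, 162, 213, 350, 157 and 449 CPM, above these 6 types in every library. Melanocytes had 392, 628, 427, 45.1, 73.2 and 422 CPM, low at 2 d and 4 d only.

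Langerhans cells, the antigen presenting cells of the epidermis, had a core sum of 30.2, 312, 251, 67.6, 65.7 and 62.1 CPM from 0 h to 6 d. The 4 h value came mostly from 1 cell, which held 157 of the 220 core UMIs of the 166 Langerhans cells, and without it the 4 h sum was 90.1 CPM. The 16 h value did not: its leading cell held 15 of 141 core UMIs, and without it the sum was 226.6 CPM. With that 1 cell set aside, 16 h was the library where Langerhans cells stood highest, where IFE.B (51.9 CPM) and uHF.B (51.0 CPM) were far lower. In melanocytes the leading cell held 13 of 30 core UMIs at 0 h and 34 of 102 at 4 h, and the sums without it were 230.3 and 423.3 CPM.

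The members differed in the cell type where they were most abundant, judged by the median of the 6 libraries over the 9 types fitted below. This was melanocytes for 14 of the 38 members, Langerhans cells for 7, T cells for 7, IFE.B for 6, uHF.B for 3 and uHF.SB for 1. For Oasl1, Rsad2, Ifi44 and Cmpk2 the IFE.B lead was a median of only 0.0133, 0.158, 0.238 and 0.355 CPM. IFE.B libraries held 12996210 to 37523184 UMIs and Langerhans libraries 198824 to 1049714, so these leads cannot be told apart from depth. For 6 members the range over libraries in the leading type did not touch that of the type next in order. Lgals3bp was at 105 to 179 CPM in T cells against 16.1 to 57.4 in melanocytes. Zbp1, a sensor of left handed nucleic acid that triggers cell death, was at 5.67 to 19.2 CPM in T cells against 0.189 to 1.81 in uHF.B. Irgm1 was at 42.3 to 170 CPM in melanocytes against 6.97 to 15.0 in T cells, and Gbp7, Iigp1 and Rtp4 also led there. Ifitm3 was at 1101 to 1679 CPM in uHF.B and 812 to 1744 CPM in IFE.B, which overlap, and at 18.9 to 57.9 CPM in T cells. The lead of Langerhans cells by median was in Epsti1, Trim30a, Oas1a, Oas2, Oas3, Dhx58 and Parp14. They stood highest in 6 of 6 libraries for Epsti1, 5 for Trim30a and Oas2, and 4 for Oas1a and Oas3. For Dhx58 it was 3 libraries and for Parp14 it was 1. Oas1a, Oas2, Oas3 and Dhx58 had no UMI in Langerhans cells in at least 1 library. These orders were not tested.

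**Figure D2:**
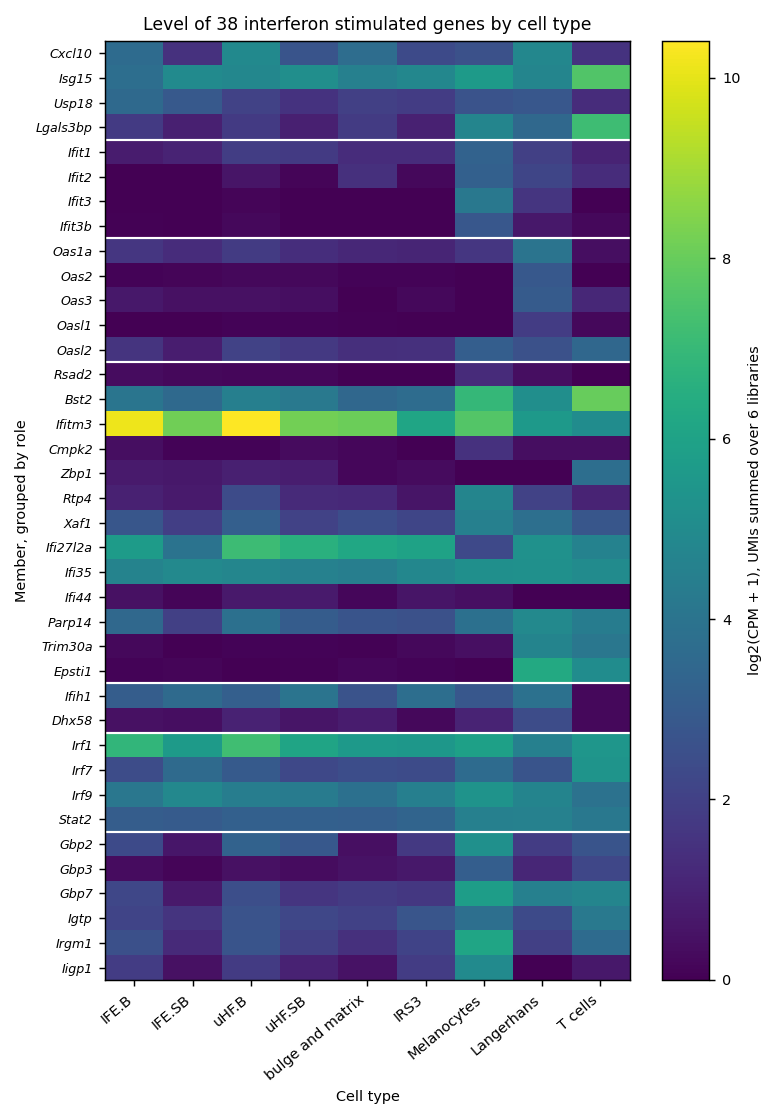
Heat map of the level of 38 members (rows, grouped by role) in 9 cell types (columns), as log2(CPM + 1) of the UMIs summed over the 6 libraries. Ifitm3 is brightest in IFE.B and uHF.B, Isg15, Bst2 and Lgals3bp in T cells, Irgm1, Gbp7 and Iigp1 stand out in melanocytes, and Epsti1 and Trim30a in Langerhans and T cells.

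Within the basal keratinocytes the low 4 h library and the high 6 d library held across roles. In IFE.B, 17 of the 25 members with at least 100 UMIs were lowest at 4 h, beside 38.8% of 11706 genes, and 17 of 25 were highest at 6 d, beside 7.02% of genes. In uHF.B the counts were 17 of 24 lowest at 4 h, beside 35.9% of 10672 genes, and 15 of 24 highest at 6 d, beside 6.04%. The counts at 6 d were 9 of 19 in IFE.SB (beside 6.05% of genes), 5 of 18 in uHF.SB (4.8%), 6 of 17 in bulge and matrix (13.3%) and 6 of 14 in T cells (10.3%). In Langerhans cells 4 of the 6 members with enough UMIs were highest at 16 h, beside 13.3% of genes. Members of 1 type share their library and its depth, so these counts are a description.

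Cxcl10 in uHF.B was at 33.5, 0.215, 0.472, 11.5, 25.2 and 83.8 CPM from 0 h to 6 d. In IFE.B it was at 23.6, 0.550, 5.01, 20.1, 5.23 and 19.4 CPM, so both basal types had few Cxcl10 UMIs at 4 h (1 and 17 UMIs). Isg15 was at 23.2, 4.94, 15.9, 29.1, 14.2 and 59.3 CPM in uHF.B, and at 13.1, 3.92, 8.98, 15.4, 7.31 and 36.9 CPM in IFE.B. Irf1 was also lowest at 4 h in both, with 505 CPM at 0 h and 19.3 at 4 h in uHF.B and 308 and 9.06 CPM in IFE.B. In T cells Irf1 was at 52.6, 31.8, 47.1, 35.1, 47.8 and 55.5 CPM, a far narrower range.

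A smooth curve of time was fitted to the counts summed per library and cell type (a natural spline of hours, tested by quasi-likelihood in edgeR, 3 degrees of freedom, 2 left for the spread between libraries), in the 9 types with at least 20 cells in every library. A member is called higher or lower by the sign of the straight part of its curve. In this test 2 results were called higher and 6 lower at an adjusted p of 0.05. The curve left no call in 6 of the types. In IFE.B, 0 of 32 members tested were called, 1 had an unadjusted p under 0.05, DESeq2 called 0, and 0% of 12921 genes were called. In uHF.B it was 0 of 26 (5 with an unadjusted p under 0.05, 1 by DESeq2, 0% of 11679 genes), in IFE.SB 0 of 27 (6 and 3, 0% of 12459 genes), in uHF.SB 0 of 24 (6 and 2, 0% of 11593 genes), in bulge and matrix 0 of 18 (4 and 2, 0.0438% of 11405 genes) and in Langerhans cells 0 of 16 (0 and 0, 0.0161% of 6201 genes). With no gene or nearly none called, these fits do not show that the members stayed level. The straight part of the fitted curve was positive for 28 of 32 members in IFE.B, beside 45.8% of genes. The median of this straight part, as a log2 change over the time span, was 1.22 there, beside -0.05 over all genes. The straight part is not the change between the 0 h and 6 d libraries. For Irf1 in IFE.B it was 1.05, with 308 CPM at 0 h and 240 CPM at 6 d. In uHF.B the straight part was positive for 24 of 26 members, beside 46.0% of genes (median 1.08 beside -0.06). The median was 1.58 in uHF.SB, 0.91 in IFE.SB and 0.29 in T cells. It was negative in bulge and matrix (-0.63, 6 of 18 members positive) and in IRS3 (-0.33, 4 of 9). It was also negative in Langerhans cells (-0.86, 1 of 16) and in melanocytes (-1.96, 1 of 15). The count of higher calls over the 9 types depended on single libraries: it was 19 without the 0 h library, 15 without 4 h, 7 without 2 d and 6 without 4 d, and the count of lower calls was 10 without 0 h.

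Ifi27l2a was the member called higher with time, in 2 types. In both it passed the filter on low counts through libraries of 2 d or later, so its calls had to have this direction. In IRS3 it had no UMI among 535375 at 0 h and was at 2.40, 2.78, 32.3, 33.4 and 137 CPM in the libraries that followed (edgeR adjusted p = 0.0031, where 1.34% of 8591 genes were called higher and 0.396% lower). Markers moved with it in this cluster: from 0 h to 6 d the IRS3 list rose and the outer bulge list fell as given above, the uHF.SB list went from 2038 to 25970 CPM, and their part in the call was not tested. It was the only call among 9 members tested there, and it was lost when doublets were kept (adjusted p between 5.0e-14 and 0.42 over the alternatives). In T cells it was at 0, 1.13, 6.97, 21.7, 5.77 and 121 CPM (edgeR adjusted p = 0.038, 1 of 18 members, 0.0514% of 7787 genes called higher). The T cell call was lost with doublets kept and with the time scale as log2 or as rank (adjusted p up to 0.64). Of the 96 Ifi27l2a UMIs of T cells at 6 d, 89 were in 57 T lymphocytes (513 CPM) and 7 in 233 dendritic epidermal T cells (11.3 CPM), and 1 cell held 38 (73.1 CPM over T cells without it). T lymphocytes were 6 of 214 T cells at 0 h and 57 of 290 at 6 d, and the part of this mix in the call was not tested. Ifi27l2a was abundant in keratinocytes of the same 6 d library, with 415 CPM in uHF.B and 206 in IFE.B.

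In melanocytes the calls had the other direction. Of 15 tested, 6 were called and all 6 lower, beside 2.41% of 4404 genes called lower and 2.54% higher (DESeq2 called 2), and 13 had an unadjusted p under 0.05. Gbp2 was at 209, 111, 25.5, 19.3, 30.4 and 15.1 CPM from 0 h to 6 d (edgeR adjusted p = 0.00097). Of its 16 UMIs at 0 h, 11 were in 1 cell, and without that cell the 0 h level was 65.4 CPM. Isg15 was at 131, 259, 147, 9.67, 11.3 and 110 CPM, low at 2 d and 4 d and high again at 6 d (adjusted p = 8.7e-05 in edgeR). Irf1 was at 65.3, 271, 172, 58.0, 33.3 and 32.6 CPM (adjusted p = 0.010 in edgeR). Irf9 was at 118, 148, 108, 22.6, 23.8 and 30.1 CPM (edgeR, adjusted p = 0.0050), and Ifi35 at 65.3, 142, 108, 6.44, 23.2 and 27.6 CPM (edgeR, adjusted p = 0.039). For Isg15, Irf1, Irf9 and Ifi35 each library up to 16 h lay above the 2 d and 4 d libraries. Gbp2, Irf9 and Ifi35 passed the filter on low counts through libraries of 16 h or before, so their calls had to have this lower direction. At 0 h Irf1 and Ifi35 had 5 UMIs each and Irf9 had 9. Ifit3 was at 39.2, 73.9, 19.1, 0, 4.76 and 52.7 CPM (adjusted p = 0.030, edgeR), but 11 of its 12 UMIs at 4 h were in 1 cell, the 4 h level without it was 6.16 CPM, and the sign of its straight part turned without the 0 h library (0.18) and without the 4 h library (0.38). The Irf1 call was lost without 4 d and without 6 d, the Ifi35 call without 4 h and the Irf9 call without 4 d, and all of these and the Ifit3 call were lost with DESeq2. The melanocytes numbered 29, 89, 77, 51, 272 and 66 from 0 h to 6 d, and their summed marker list, with none of its 6 markers at 0, was at 4104 CPM at 0 h and 28110 CPM at 4 d. The part of this shift in the calls was not tested, and the curve was not fitted again without the single cells named above.

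**Figure D3:**
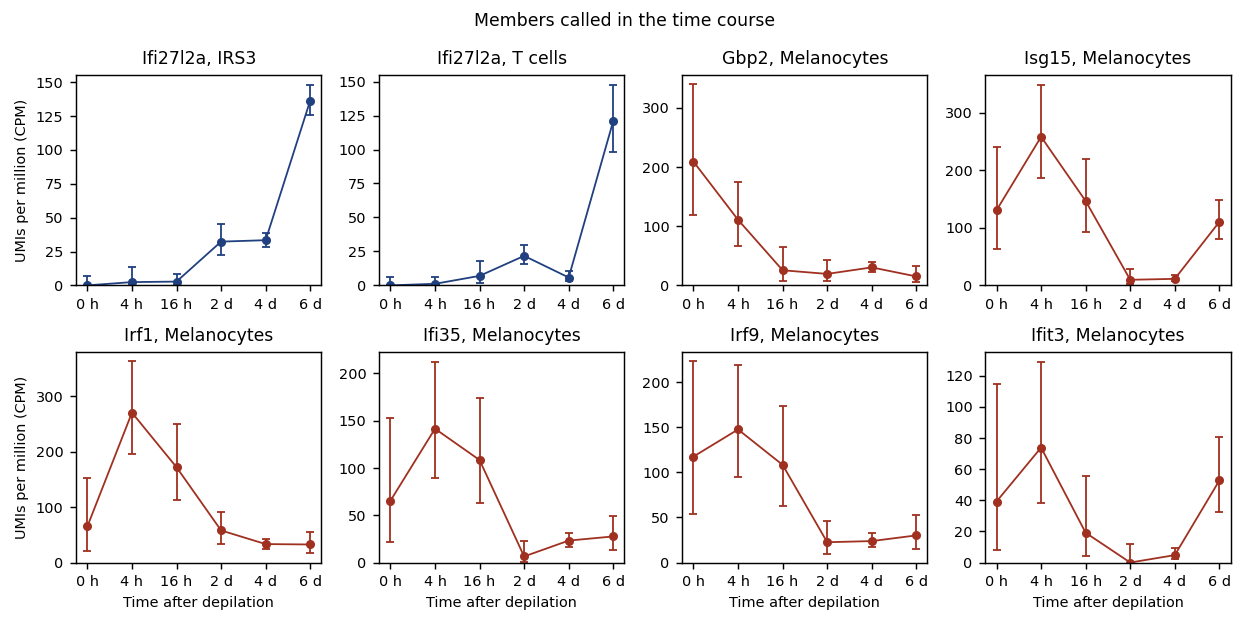
Level (CPM, linear axis from 0) of the members called in the time course, by library, with exact Poisson 95% intervals. Ifi27l2a reaches 137 CPM in IRS3 and 121 CPM in T cells at 6 d, while in melanocytes Irf1, Ifi35 and Irf9 are highest at 4 h, Gbp2 is highest at 0 h, and Isg15 and Ifit3 are low at 2 d and 4 d and high again at 6 d.

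Cell types of the same library were then compared with the library as a block, so that each mouse pair served as its own control. In uHF.B against IFE.B, 3 of 28 members tested were higher, beside 16% of 12685 genes, and 1 was lower, beside 20%. The median log2 difference was 0.05 over the members and -0.01 over all genes. Isg15 was at 4.94 to 59.3 CPM in uHF.B (median 19.6) and at 3.92 to 36.9 CPM in IFE.B (median 11.04). It was higher in uHF.B in 6 of 6 libraries, by 0.67 on the log2 scale (SE 0.10, edgeR adjusted p = 0.00059), although the ranges overlap. Rtp4, a chaperone of receptors that is strongly induced by interferon, was at 0 to 9.89 CPM against 0.0769 to 4.77 CPM and higher in 5 of 6 libraries (log2 difference 1.74, SE 0.35, edgeR adjusted p = 0.0039). Without the library as a block the edgeR adjusted p was 0.62 for Isg15 and 0.42 for Rtp4. Usp18 was lower in uHF.B in 6 of 6 libraries, with 1.29 to 5.04 CPM (median 2.69) against 4.08 to 18.0 CPM (median 10.8), a log2 difference of -1.93 (SE 0.25, edgeR adjusted p = 0.00035). Isg15 and the enzyme that removes it thus differed in opposite directions. Ifit1 was called higher (log2 difference 1.09, SE 0.34, edgeR adjusted p = 0.029) but stood higher in 3 libraries and lower in the other 3, and the call was lost with DESeq2, with doublets kept and without the 16 h, the 2 d or the 6 d library. Without the 4 h library 5 members were higher, and without 4 d or without 6 d 2 were lower. Cxcl10, with 0.215 to 83.8 CPM in uHF.B and 0.550 to 23.6 in IFE.B, was not called.

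Bulge and matrix cells held less of the list than IFE.B. Of 29 members tested, 12 were lower, beside 16.5% of 13599 genes, and 1 was higher, beside 16.4%. The median log2 difference was -0.72 over the members and -0.04 over all genes. Gbp2 was at 0 to 0.606 CPM (17 UMIs in all) in bulge and matrix and at 1.55 to 7.54 CPM in IFE.B, lower in 6 of 6 libraries (log2 difference -4.62, SE 0.44, edgeR adjusted p = 0.00012). Iigp1 was at 0 to 0.624 CPM against 0.129 to 5.84 CPM (log2 difference -3.93, SE 0.38, edgeR adjusted p = 0.00013). Ifitm3 was at 115 to 545 CPM against 812 to 1744 CPM, with no overlap (log2 difference -1.99, SE 0.26, edgeR adjusted p = 0.00065). Irgm1 was at 0.631 to 2.72 CPM against 1.29 to 10.3 CPM (log2 difference -1.81, SE 0.33, edgeR adjusted p = 0.0036). Zbp1 (6 against 102 UMIs) and Oas3 (1 against 88 UMIs) were also lower in 6 of 6 libraries, at counts where the size of the change is uncertain. Gbp2, Iigp1, Zbp1, Oas3 and also Ifi44 (7 against 58 UMIs) passed the filter on low counts through IFE.B, so their calls had to have this direction. The other 6 lower calls, with log2 differences of -1.05 to -2.13, were Ifi27l2a, Oas1a, Parp14, Ifi44, Bst2 and Usp18, and these were the less certain ones. Ifi27l2a was lower in 5 of 6 libraries, yet its UMIs summed over libraries gave 72.9 CPM in bulge and matrix and 52.1 in IFE.B, and of the 6874 bulge and matrix cells 3100 were from 4 d and 1656 from 6 d. The calls for Ifi44, Bst2, Usp18, Oas1a and Parp14 were each lost without some library. Without the 2 d library 6 members were lower, without 6 d 7, and without both 4 d and 6 d, 6 were lower and 0 higher, and the Oas3 call was lost. Without the library as a block 3 were lower and 0 higher.

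Ifit2 went the other way, with 81 UMIs in bulge and matrix and 4 in IFE.B. It was at 0, 0, 0.210, 1.21, 2.08 and 2.58 CPM in bulge and matrix from 0 h to 6 d, with 50 of its 81 UMIs at 4 d and 26 at 6 d (log2 difference 4.09, SE 0.73, edgeR adjusted p = 0.0044, higher in 4 of 6 libraries). Its gene lies next to Ifit1 and Ifit3 on chromosome 19. Ifit1 was not called in this comparison (edgeR adjusted p = 0.79), and Ifit3, with 1 UMI in bulge and matrix, was not tested. Ifit2 passed the filter on low counts through bulge and matrix, so its call had to be in the higher direction and the size of the difference is uncertain. Without the 4 d and 6 d libraries Ifit2 was too scarce to be tested.

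Langerhans cells and T cells, the 2 immune cell types of the epidermis here, were also compared. Of 19 members tested, 4 were higher in Langerhans cells, beside 23.6% of 8112 genes, and 7 were lower, beside 26.5%, so that the counts alone do not set the members apart from other genes. The median log2 difference was 0.51 over the members and -0.03 over all genes, positive although more members were called lower than higher. Without the library as a block 2 were higher and 4 lower, and with no filter on low counts 13 were higher. Epsti1 was at 35.2 to 116 CPM in Langerhans cells against 17.5 to 41.6 CPM in T cells and higher in 6 of 6 libraries (log2 difference 1.46, SE 0.23, edgeR adjusted p = 4.9e-05). Ifih1 had 48 UMIs in Langerhans cells and 1 in T cells, and Oas1a had 52 against 2. Both genes detect or answer double stranded RNA, and both passed the filter on low counts through Langerhans cells, so their calls had to have this direction and the size of the difference is uncertain. Trim30a was higher in 5 of 6 libraries (log2 difference 0.76, SE 0.25, edgeR adjusted p = 0.020), a call lost without the 2 d or the 4 d library.

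Lower in Langerhans cells were Lgals3bp (0 to 25.1 CPM against 105 to 179 CPM, log2 difference -3.71, SE 0.31, edgeR adjusted p = 8.2e-08) and Bst2 (19.5 to 82.0 CPM against 153 to 336 CPM, log2 difference -2.73, SE 0.24, edgeR adjusted p = 1.3e-07), neither of which overlapped. Isg15 was at 10.1 to 49.9 CPM in Langerhans cells and at 80.5 to 348 CPM in T cells, with no overlap and a log2 difference of -2.66 (SE 0.66, edgeR adjusted p = 0.013). One of the 166 Langerhans cells of 4 h held 23 of their 33 Isg15 UMIs, and without the Langerhans cell that held the most Cxcl10 UMIs, a setting chosen after seeing the data, Isg15 in Langerhans against T cells had a log2 difference of -3.08 (edgeR adjusted p = 0.00084). In T cells Isg15 was at 319, 80.5, 99.4, 274, 92.4 and 348 CPM from 0 h to 6 d, and a UMI of it was found in 13.0% to 41.7% of T cells per library. Irf7 was at 0 to 21.4 CPM against 24.1 to 62.8 CPM (log2 difference -3.01, SE 0.39, edgeR adjusted p = 8.7e-06). Zbp1 had 0 UMIs in Langerhans cells and 81 in T cells, lower in 6 of 6 libraries. It passed the filter on low counts through T cells, so its call had to have this direction. Igtp, with 14 UMIs against 114, was lower in 6 of 6 libraries (log2 difference -2.07, SE 0.46, edgeR adjusted p = 0.0014). Like Zbp1, it passed the filter through T cells, so its call also had to have this direction. Irf1 was lower by a smaller step (log2 difference -0.80, SE 0.26, edgeR adjusted p = 0.018) that was lost without the 16 h, the 2 d or the 4 d library. All 7 Langerhans markers were detected in the Langerhans cells, but so were all 8 markers listed for macrophages and dendritic cells, at 508 to 1395 CPM in sum against 21720 to 29590 CPM for the Langerhans list.

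Core UMIs were unevenly spread over cells. At least 1 core member was detected in 12879 of 50502 cells (25.5%), at least 3 in 1048 (2.08%), at least 5 in 315 and at least 10 in 41. To compare libraries of unequal depth, each cell was thinned to 2000 UMIs and the share with at least 3 core members was taken. Over all cells this share was 0.0777%, 0.131%, 0.309%, 0.493%, 0.106% and 1.16% from 0 h to 6 d. Unthinned it was 1.86%, 0.808%, 2.44%, 1.86%, 0.707% and 4.78%, so both were highest at 6 d, and the order of 0 h and 4 h was turned. In uHF.B at 6 d it was 1.97%, in IFE.B 0.943% (0.569 to 1.47) and in bulge and matrix 0.995% (0.570 to 1.61). Langerhans cells had 7 of 113 cells (6.20%, 2.53 to 12.4) at 16 h and 3 of 162 at 4 h, but 0 of 115 at 6 d, where a limit of 3 cells would be a share of 2.61%. Melanocytes had 5 of 58 cells at 6 d (8.62%, 2.86 to 19.0). No cell type here is known to lack these genes, so the background from free RNA could not be set from one.

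**Figure D4:**
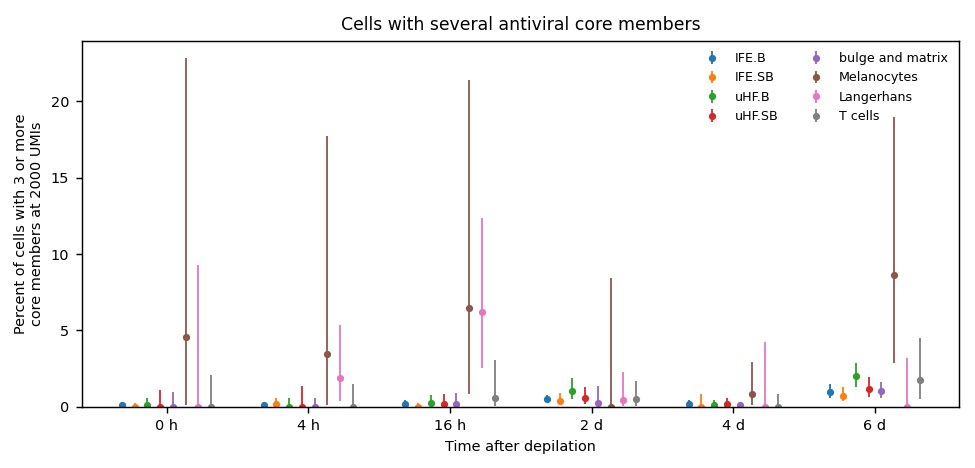
Share of cells (percent) with at least 3 antiviral core members after thinning to 2000 UMIs, by library and cell type, with exact binomial 95% intervals. Keratinocyte shares stay under 3% and are highest at 6 d, Langerhans cells reach 6.20% at 16 h, and the wide intervals of melanocytes reflect 22 to 243 cells per library.

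Cxcl10 was held by few cells. In uHF.B at 6 d, 129 of 1333 cells (9.68%) had a Cxcl10 UMI, with 6.83 UMIs per such cell, and 12 cells held at least 50% of the 881 UMIs. At 0 h it was 66 of 969 cells (6.81%) with 3.76 UMIs per such cell. In uHF.B at 4 d, 1 cell held 95 of 207 Cxcl10 UMIs. In IFE.B at 16 h, 1 cell held 122 of 188 Cxcl10 UMIs, and at 2 d 1 cell held 161 of 529. The share of cells with a Cxcl10 UMI at 6 d was 1.38% in T cells (4 of 290, median depth 2522 UMIs) and 0.613% in IRS3 (4 of 653, median depth 5095 UMIs), against 9.68% in uHF.B (median depth 7234 UMIs). Isg15 was more widely spread in uHF.B, with 231 of 1333 uHF.B cells (17.3%) and 2.70 UMIs per such cell at 6 d. IFE.SB differed: of its 2475 Isg15 UMIs at 6 d, 11 cells of 1443 held at least 50% and 1 cell held 185, while 240 cells (16.6%) had at least 1. The 127 CPM of Isg15 there, and the core sum of 197 CPM, thus rest on a small set of cells. Usp18 behaved otherwise, with 426 of 2979 IFE.B cells (14.3%) holding 490 UMIs at 0 h, 1.15 per such cell and at most 4 in any cell.

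Cells of the 6 d library with at least 3 Cxcl10 UMIs and cells with at least 3 Isg15 UMIs but no Cxcl10 were set side by side. The genes named here were picked after their values had been seen, and the shares are a description. In uHF.B there were 64 Cxcl10 cells, 35 Isg15 cells without Cxcl10 and 1169 other cells. Cxcl9, the companion chemokine of Cxcl10, was found in 26.6% of Cxcl10 cells, 2.86% of Isg15 cells and 1.11% of other cells. Igtp was found in 26.6%, 8.57% and 3.08%, and Irf1 in 79.7%, 57.1% and 47.0%. Bst2 ran the other way, with 28.1% of Cxcl10 cells, 74.3% of Isg15 cells and 9.67% of other cells, and so did Oasl2 (12 of 64, 14 of 35 and 17 of 1169 cells), Rtp4 (12 of 64, 14 of 35 and 35 of 1169 cells) and Usp18 (9.38%, 28.6% and 1.80%). Gbp2 was found in 25.0%, 17.1% and 2.31%. In IFE.B, with 30, 34 and 1907 cells, Irf1 (90.0%, 52.9% and 57.4%), Bst2 (26.7%, 61.8% and 9.81%) and Rtp4 (10.0%, 44.1% and 1.10%) kept the order of the Cxcl10 and Isg15 cells, but Iigp1 did not: it was found in 21.9% of Cxcl10 cells and 11.4% of Isg15 cells in uHF.B, and in 10.0% and 35.3% in IFE.B. The Isg15 cells were deeper, with a median of 10504 UMIs against 7879 in the Cxcl10 cells of uHF.B and 9015 against 6862 in IFE.B, and the part of depth was not tested.

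**Figure D5:**
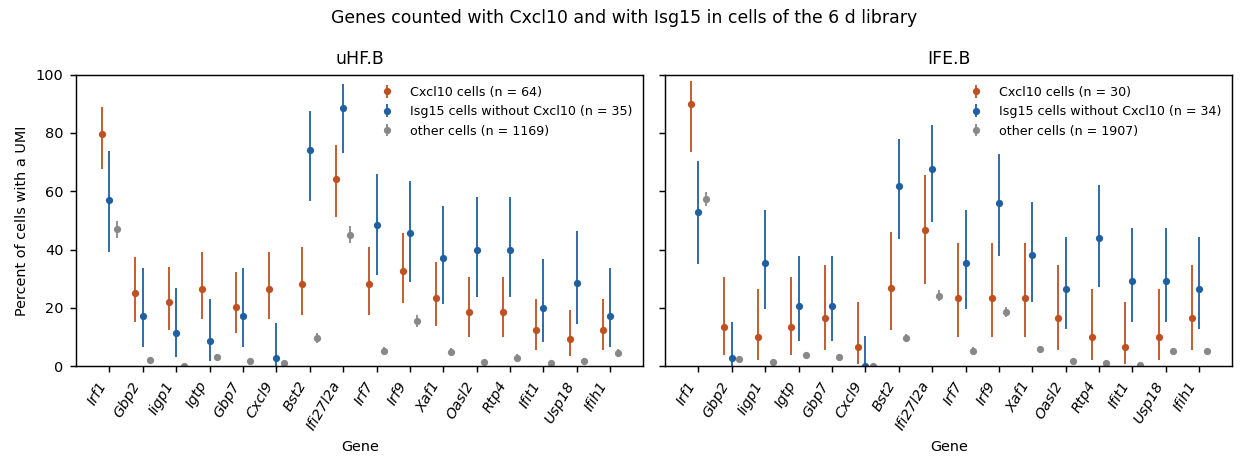
Percent of cells of the 6 d library with a UMI of each gene, with exact binomial 95% intervals, for cells with at least 3 Cxcl10 UMIs, cells with at least 3 Isg15 UMIs and no Cxcl10, and the other cells of uHF.B (left) and IFE.B (right). Irf1 and Cxcl9 are more frequent in the Cxcl10 cells, Bst2, Rtp4, Oasl2 and Usp18 in the Isg15 cells, and most genes are rare in the other cells.

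The ligands of the pathway were scarce. Interferon beta (Ifnb1) had 2 UMIs in 1 of 50502 cells, interferon lambda Ifnl2 had 4 UMIs in 2 IFE.B cells and Ifnl3 had 1 UMI. Ifne, Ifna1, Ifna2 and Ifna4 had none, which allows up to 3 UMIs over all libraries. Interferon gamma (Ifng) had 65 UMIs in 32 cells, of which 29 were T lymphocytes (9.97% of 291) and 3 were dendritic epidermal T cells (of 2426), and 39 of the UMIs were at 4 d. That library held 124 of the 291 T lymphocytes, 1 cell had 14 of its 39 UMIs, and the share of T lymphocytes with Ifng was 12.9% there and 11.1% at 2 d. Interferon kappa (Ifnk), made by keratinocytes, had 436 UMIs in 328 cells, with 127 UMIs at 0 h and 53 to 84 in each later library. It was found in 107 of 16729 IFE.B cells (0.640%) and 65 of 1924 sebaceous gland cells (3.38%).

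Of the other pathway genes, 36 of 38 listed had a row. None was called in the time course of 7 types. In IRS3 Socs3 was lower (1 of 16 tested, beside 0.396% of all genes). In melanocytes Stat3, Ptpn2 and Socs3 were lower (3 of 11, beside 2.41% of all genes). In uHF.B against IFE.B, 7 of 25 were lower and none higher, beside 20% of all genes tested lower and 16% higher, and among those lower were the receptor Ifngr1, the kinases Jak1 and Jak2, the factors Stat3 and Irf5, and Socs3. In bulge and matrix against IFE.B, 9 of 24 were lower, beside 16.5% of all genes, among them Ifngr1, Ifnlr1, Jak1, Jak2, Tyk2 and Stat3. In the same comparison 1, Tmem173 (STING), was higher, beside 16.4% of all genes. In Langerhans cells against T cells, 8 of 21 were higher, beside 23.6% of all genes (Irf2, Irf5, Irf8, Jak2, Aim2, Ddx58, Pias1 and Il10rb) and 6 lower, beside 26.5% (among them Jak1, Stat3, Ptpn2, Socs1 and Ifngr1). Over all cells Ifngr1 was at 122, 106, 96.9, 61.9, 61.6 and 49.1 CPM from 0 h to 6 d.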

How the data were processed

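Cells of mouse dorsal skin were captured with a droplet 3' kit, and the authors aligned reads to mm10, per the labels, and made the filtered count matrices with Cell Ranger 6.1.2. The deposited matrices hold UMI counts for each gene in each cell, not normalised. Barcodes with 500 to 7000 genes and at most 10% mitochondrial UMIs were kept, and the cells with the highest Scrublet scores (Scanpy 1.11.5) were removed as doublets, 0.8% per 1000 barcodes. Clusters came from Seurat 5.3.0 with reciprocal PCA integration, without 337 interferon, MHC class I and cell cycle genes and were named from marker lists (at least 3 markers). The members and all lists were chosen with earlier results of these data known.

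UMI counts were summed per library and cell type and fitted over all genes with edgeR 4.0.16 (TMM, quasi-likelihood test, Benjamini-Hochberg adjustment, threshold 0.05), for time by a spline of hours and between cell types with the library as a block. The block pairs cell types captured in the same library from the same mice. All members were named by role, with values in every library for Cxcl10, for those called and for the 2 with most UMIs in each role. DESeq2 1.42.0, other filters, scalings and time scales, doublets kept and each library left out were alternatives. The fits were tested on simulated data. Values of 1 listed pathway gene are not reported here. No replicate library exists, so the p-values rest on the spread around the curve or between libraries. A count of 0 allows 3 counts.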

Additional observations from a re-analysis of the deposited data

How the results depend on the processing

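No paired analysis was possible because each time point has a single library, so this holds for the time course. In it, the 2 higher calls became 5 with hours on a log2 scale, 6 with no filter on low counts, 10 with DESeq2 and 0 with doublets kept, and ranged from 2 to 19 with single libraries left out. The 6 lower calls became 10 with log2 hours, 10 with the rank of time and 2 with DESeq2, and ranged from 4 to 10. The straight part of the Ifit3 curve in melanocytes (-0.86) changed sign without the 0 h library (0.18) and without the 4 h library (0.38), and ranged from -0.96 to 0.38 over single libraries left out. The cause was not tested.

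Between cell types, without the library block the higher calls went from 3 to 0 (uHF.B), from 1 to 0 (bulge and matrix) and from 4 to 2 (Langerhans cells), and the lower calls from 12 to 3 (bulge and matrix) and from 7 to 4 (Langerhans cells). In uHF.B against IFE.B, the 1 lower call became 2 with no filter, with DESeq2 and with doublets kept, and ranged from 1 to 2 with single libraries left out, where the higher calls ranged from 2 to 5. In bulge and matrix, leaving out the 4 d and 6 d libraries, an alternative chosen after seeing the data, gave 0 higher and 6 lower, and single libraries left out gave 6 to 10 lower. In Langerhans cells, no filter gave 13 higher and dendritic epidermal T cells alone, also chosen after seeing the data, gave 7.

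The core sum was 66.1 CPM at 2 d and 50.4 at 4 d over all deposited barcodes, and 66.9 and 50.8 with doublets kept. The shares of cells with at least 3 core members from 0 h to 6 d were 1.86%, 0.808%, 2.44%, 1.86%, 0.707% and 4.78% with no thinning. They were 0.901%, 0.482%, 1.08%, 1.18%, 0.654% and 2.89% for at least 2 members and 0%, 0.0146%, 0.0129%, 0.136%, 0.0192% and 0.203% for at least 5. At 1000 UMIs the share was 0.0498% at 16 h, 0.186% at 2 d and 0.376% at 6 d, and with doublets kept 0.204% at 4 d. All of these were highest at 6 d where a 6 d value is given.

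Of the 36 called results of single members, 378 of 440 values kept direction and side of the threshold, 60 lost the call and 2 changed sign. Of 8 calls with time 2 held in every alternative that gave a value, and of 28 between cell types 16 did. Depth is limiting for the 19 of 38 members with under 1000 UMIs over all libraries.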

Other observations

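Single cells with an interferon beta or lambda UMI, or with most core members, were few and are given as values. A Langerhans cell of the 4 h library with 5557 UMIs held 2 Ifnb1 UMIs, 90 Cxcl10, 23 Isg15, 10 Ifit1, 6 Ifit2, 5 Ifit3 and 9 Oasl1 UMIs, together with 12 UMIs of the Langerhans marker Cd207. It held all Cxcl10 UMIs of the 166 Langerhans cells of that library. An IFE.B cell at 2 d with 1 Ifnl2 UMI held 35 UMIs of Cxcl9 and 26 of Cxcl10, and one at 6 d with 3 Ifnl2 UMIs held 43 of Cxcl9 and 21 of Cxcl10. Another, with 1 Ifnl3 UMI at 6 d, held no Cxcl9 or Cxcl10.

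Cells with many core members came from several types. The leading ones were a sebaceous gland cell at 16 h with 17 of the 21 core members and 67 Isg15 UMIs, an IFE.B cell at 2 d with 17 and 51 Isg15 UMIs, an IFE.B cell at 6 d with 16 and a uHF.SB cell at 2 d with 15. These cells were deep, with 15274 to 40297 UMIs. In the sebaceous gland of the 4 h library, Ifnk was found in 22 of 240 cells (9.17%, 5.83 to 13.6) with 71 UMIs, of which 16 were in 1 cell.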
